A study of Homo sapiens with 6 samples.

Results

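The genes described here are the expressed LINC-named RNAs of H9 cells, that is, every row of the deposited count table whose symbol is LINC followed by digits and whose mean over the 6 libraries was 1 CPM or more (CPM: a gene's count over the library total, times 1000000). They numbered 42 of 375 LINC-named rows in a table of 53712 genes. The members were chosen by their mean level over both groups, so their levels are a description, while the difference between the groups was not used to choose them. H9 is an established human embryonic stem cell line. It was kept in PXGL medium, a culture condition for naive pluripotency, and the labels call the cells naive. In the 3 libraries of the SO-L1 group, the control, cells had been transfected with a sense oligonucleotide to LINE-1, and in the 3 libraries of the ASO-L1 group with an antisense one, both at 25 nM. Both groups also received trans-ISRIB, emricasan and the ROCK inhibitor Y-27632, which were taken off after the first day, and unsorted cells were collected 48 hours after transfection for libraries of poly(A) RNA. All libraries come from 1 cell line, and the labels do not say whether replicates came from different cultures. The p-values then reflect how far these samples scatter, and that scatter may be technical.

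Long intergenic noncoding RNAs are transcribed by RNA polymerase II from their own genes between protein-coding genes, and are usually spliced and polyadenylated like messenger RNAs without coding for a long protein. Many are made at low levels and in few cell types, and embryonic stem cells have a set of their own. LINC followed by a number is a placeholder symbol, and genes lose it once a host role, a function or a small protein is described. Of the 42 members, 41 matched an entry of the RefSeq gene table for GRCh38.p14, 26 by symbol and 15 as an older name. RefSeq now lists 8 of the 41 as protein-coding, most of them for a microprotein, and 33 as long noncoding RNA. LINC00849 had no match. Despite the name, 17 of the 41 overlap another coding or long noncoding gene in RefSeq. Among those called later in the text, these are LINC00630, LINC00491, LINC00662, LINC00085, LINC00338 and LINC00863. The strand setting of the counts is not stated, so how reads of a shared stretch were counted is not known.

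In all, 18 of the 42 RNAs passed the test between the groups, 9 higher and 9 lower after ASO-L1. That is 42.9% of the members, beside 33.7% of all 16873 genes tested (18.0% higher and 15.7% lower), by the quasi-likelihood test of edgeR with p-values adjusted by Benjamini-Hochberg over all genes. The share of members is thus near the background. All 42 passed the filter on low counts. The increases were led by LINC00324 (log2 fold change 2.55 ± 0.35, SE), LINC00475 (1.298 ± 0.40) and LINC00857 (1.03 ± 0.34), and the decreases by LINC00494 (-1.55 ± 0.30), LINC00698 (-1.53 ± 0.27) and LINC00086 (-1.004 ± 0.11). These 6 were the members that passed with a change of at least 2-fold. The median log2 fold change of the members was -0.004, beside -0.01 for all genes tested, and the median size of the change without its sign was 0.39 beside 0.27. Of all genes with a mean of 1 CPM or more, as required of members, 19.4% were higher and 18.0% lower, with a median size of 0.24. Members with a mean under 10 CPM numbered 28 of 42, and how depth bears on the size of the change was not tested. For 25 of the 42 members (59.5%), and for 50.9% of all genes, every library of one group lay above every library of the other. At a mean of 1 CPM or more that share of all genes was 55.1%. The 24 members that did not pass had log2 fold changes from -0.42 to 0.53, and 15 of them lay within 0.25 of 0.

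**Figure D1:**
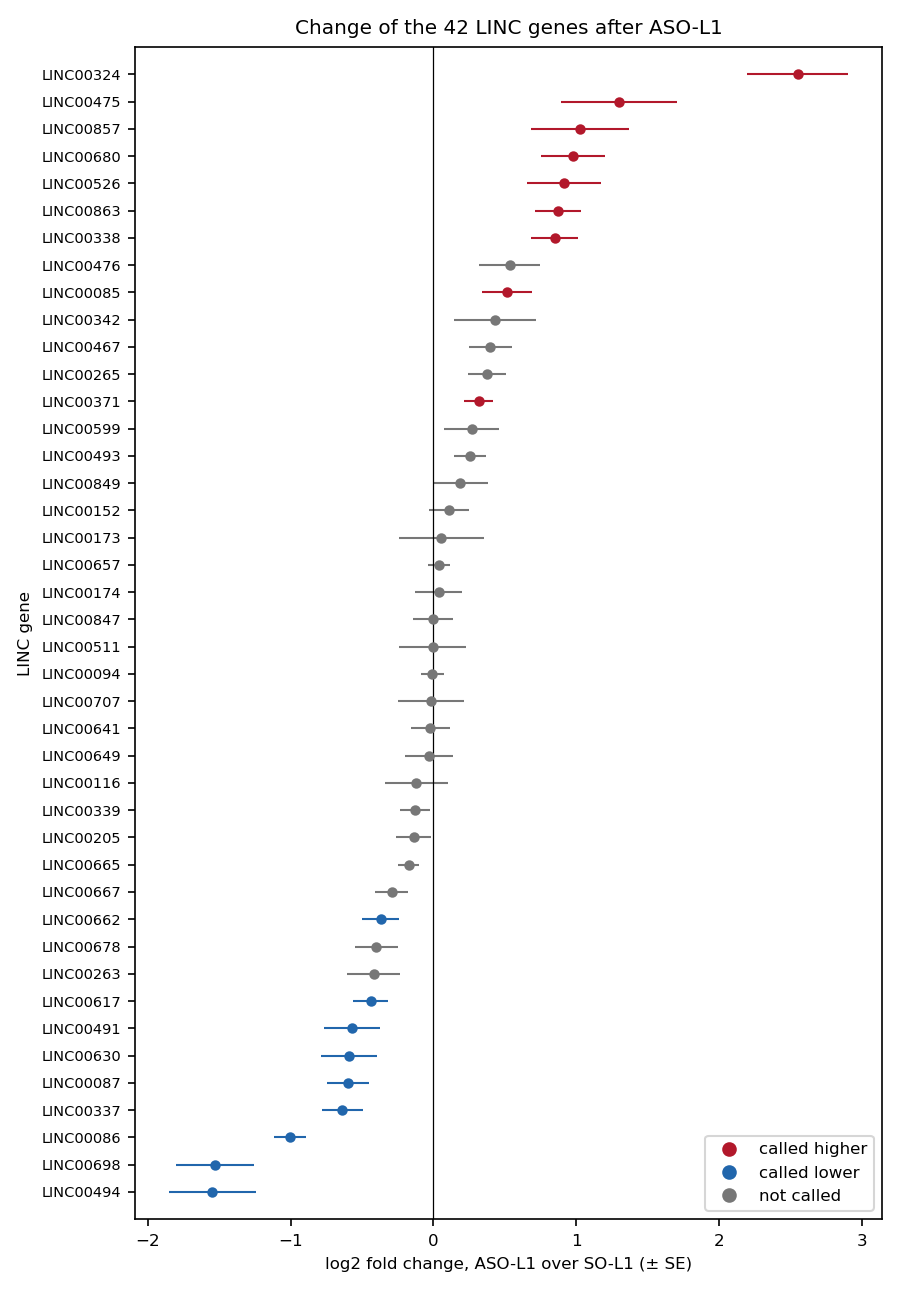
Log2 fold change of each LINC gene between ASO-L1 and SO-L1 (x axis, point ± SE, 3 libraries in each group), in order of the change. The 9 genes called higher and the 9 called lower lie toward both ends, with some that did not pass, such as LINC00263 and LINC00476, among them. LINC00324 at 2.55 lies apart from the rest.

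**Figure D2:**
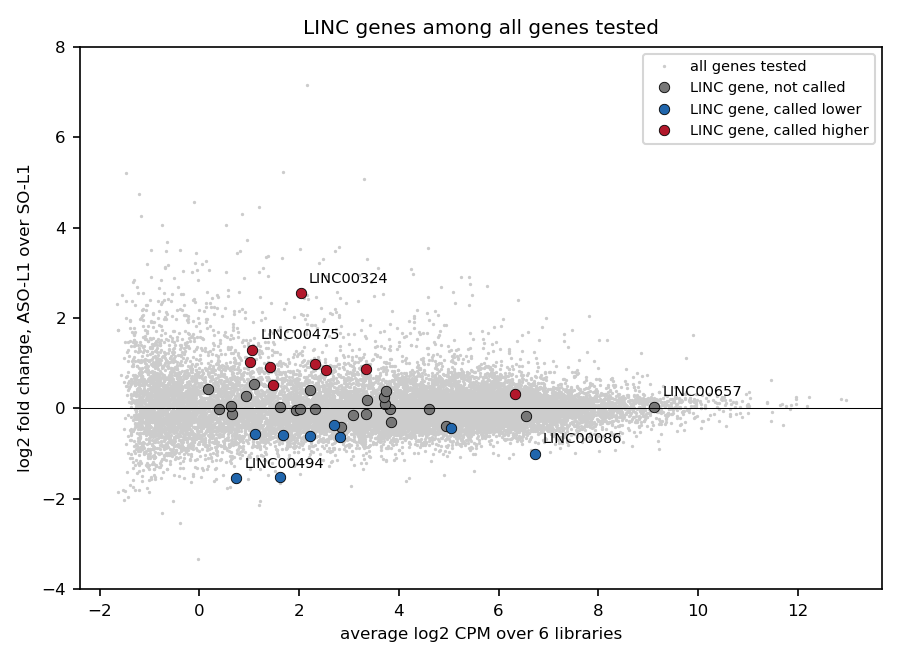
Log2 fold change (y axis) against the average log2 CPM over the 6 libraries (x axis) for all 16873 genes tested (small grey points) and the 42 LINC genes (large points, colored by call). The LINC genes lie within the range of changes of other genes, and LINC00657, with the most reads, lies at 0.04.

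The count of calls fell most without replicate 1 of both groups, and rose without replicate 2 of both groups. Without replicate 1 of both groups, 2 members were called, 1 in each direction (4.76% of members, 6.95% of all genes), and without replicate 3 of both groups 9 were (21.4% and 16.9%). Without replicate 2 of both groups 21 were called (50.0% and 41.7%). Leaving out SO-L1 replicate 1 alone left 7 calls (16.7% of members, 18.6% of all genes) and SO-L1 replicate 3 alone left 9 (21.4% and 17.5%), against 13 to 18 without any other single library. The calls among all genes thus dropped with those of the members. LINC00324 and LINC00086 were called under all 18 alternatives tried. Replicate 2 was often the most extreme library of its group. ASO-L1 replicate 2 was the highest ASO-L1 library for 7 of the 9 increases and the lowest for 8 of the 9 decreases, and SO-L1 replicate 2 was the highest SO-L1 library for 7 of the 9 increases and the lowest for 5 of the 9 decreases.

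The promoters of 5 called members are shown. LINC00324 and LINC00494 had the largest increase and the largest decrease, and their profiles over the 6 libraries were set against those of the other members. LINC00526 (Pearson r = 0.958) and LINC00863 (0.952) were the most like LINC00324, and LINC00630 (0.979) the most like LINC00494. LINC00617 (0.977) and LINC00337 (0.973) were nearly as like LINC00494, and their windows, which hold no match to the motifs searched, are not shown. These correlations rest on 6 libraries that hold the difference between the groups, and are a description. Each line is the 300-base RefSeq window around the annotated start in GRCh38.p14, read along the gene's own strand, and capitals mark matches to the motifs searched.
LINC00324 promoter (chr17:8223994-8224293, minus strand): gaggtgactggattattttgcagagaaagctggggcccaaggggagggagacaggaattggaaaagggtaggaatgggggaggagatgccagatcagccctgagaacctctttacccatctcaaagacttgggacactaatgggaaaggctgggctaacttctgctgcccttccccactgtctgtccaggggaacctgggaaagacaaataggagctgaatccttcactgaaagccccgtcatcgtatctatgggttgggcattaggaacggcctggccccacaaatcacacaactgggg
LINC00526 promoter (chr18:5237980-5238279, minus strand): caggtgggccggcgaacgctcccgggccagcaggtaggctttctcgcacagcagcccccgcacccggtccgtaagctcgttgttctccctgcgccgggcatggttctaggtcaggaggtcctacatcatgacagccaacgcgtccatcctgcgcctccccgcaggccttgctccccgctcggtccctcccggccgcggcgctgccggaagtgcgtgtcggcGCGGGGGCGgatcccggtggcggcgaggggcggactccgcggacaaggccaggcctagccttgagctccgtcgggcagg
LINC00863 promoter (chr10:87342486-87342785, plus strand): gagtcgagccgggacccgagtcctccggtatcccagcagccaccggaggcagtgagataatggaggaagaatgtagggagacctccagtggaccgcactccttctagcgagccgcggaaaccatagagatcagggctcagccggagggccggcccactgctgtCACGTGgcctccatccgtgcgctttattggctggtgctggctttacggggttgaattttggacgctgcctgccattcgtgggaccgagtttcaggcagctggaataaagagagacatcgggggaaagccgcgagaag
LINC00494 promoter (chr20:48359661-48359960, plus strand): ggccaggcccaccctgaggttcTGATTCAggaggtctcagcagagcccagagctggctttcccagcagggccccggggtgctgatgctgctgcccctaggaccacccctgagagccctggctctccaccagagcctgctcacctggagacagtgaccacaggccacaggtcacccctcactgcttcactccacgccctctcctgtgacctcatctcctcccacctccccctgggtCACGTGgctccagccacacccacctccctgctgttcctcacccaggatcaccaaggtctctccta
LINC00630 promoter (chrX:102768903-102769202, plus strand): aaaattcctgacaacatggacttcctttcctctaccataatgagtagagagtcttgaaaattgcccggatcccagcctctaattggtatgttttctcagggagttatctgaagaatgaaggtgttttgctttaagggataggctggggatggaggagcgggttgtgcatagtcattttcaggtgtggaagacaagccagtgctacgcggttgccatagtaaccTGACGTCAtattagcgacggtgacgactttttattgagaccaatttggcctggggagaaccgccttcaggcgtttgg
Both strands were searched. The cAMP response element, spelled TGACGTCA, was found in 2 of 29 member promoters, LINC00630 among them, and in 1.98% of all 27305 promoters. The AP-1 motif, spelled TGANTCA, was in 4 members, with LINC00494 the 1 called, and in 7.76% of all. The motif of EGR factors, spelled GCGNGGGCG, was in LINC00526 and LINC00667, whose windows share the same site, and in 9.28% of all. The E-box, spelled CACGTG, was in 4 members, with LINC00494 and LINC00863 called, and in 7.43% of all. The TATA box, spelled TATAAA, was in 0 of the 29 and in 11.95% of all. A match is only a run of letters, and the LINC00324 window had none.

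LINC00324, the member with the largest increase, had 38, 42 and 22 reads in SO-L1 replicates 1 to 3 and 113, 228 and 198 in the ASO-L1 ones. Its level went from 1.22, 1.71 and 0.718 CPM to 4.66, 10.0 and 6.43 CPM (adjusted p = 0.00224). Each ASO-L1 library lay far above each SO-L1 library. In RefSeq the gene lies between AURKB, which encodes a mitotic kinase, and CTC1, which encodes a telomere maintenance protein. AURKB was slightly higher (98.6 ± 10.9 to 116 ± 2.37 CPM, SD, n = 3, log2 fold change 0.24 ± 0.08, adjusted p = 0.0467), and CTC1 did not pass (-0.10 ± 0.08, 0.381).

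LINC00475 and LINC00857 rose from levels near 1 CPM. LINC00475 had 0.864, 1.87 and 0.913 CPM in SO-L1 and 2.06, 4.69 and 2.14 CPM in ASO-L1 (adjusted p = 0.0363). Its groups did not overlap, and replicate 2 was the highest library of each group. LINC00857 had 0.704, 2.08 and 1.21 CPM against 2.93, 3.11 and 1.98 CPM (0.0432), where the lowest ASO-L1 library lay below the highest SO-L1 library. The call of LINC00475 was lost without SO-L1 replicate 1 (adjusted p = 0.124), SO-L1 replicate 3 (0.126) or ASO-L1 replicate 2 (0.0650), without replicate 1 (0.115) or 3 (0.0906) of both groups and against a 1.2-fold change (0.0838), and that of LINC00857 without SO-L1 replicate 1 (0.141) or 3 (0.134), without ASO-L1 replicate 1 (0.101) or 2 (0.0953), replicate 1 (0.269) or 3 (0.0866) of both groups and against a 1.2-fold change (0.104).

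LINC00680 and LINC00863 roughly doubled, with no overlap between the groups. LINC00680 went from 2.66, 4.27 and 3.16 CPM to 5.57, 8.55 and 5.68 CPM (log2 fold change 0.98 ± 0.22, adjusted p = 0.00878). LINC00863 went from 6.82, 7.89 and 6.88 CPM to 12.1, 16.5 and 10.8 CPM (0.87 ± 0.16, 0.00393). LINC00863 neighbours NUTM2D, a member of a gene family with near-identical copies, which rose from 0.581 ± 0.121 to 1.89 ± 0.350 CPM (SD, n = 3, 1.70 ± 0.27, 0.00254). The sources used here do not say to which copy shared reads were given, so the value of NUTM2D is uncertain. LINC00680 no longer passed when SO-L1 replicate 1 was left out (0.0525) or replicate 1 of each group (0.0692), and that of LINC00863 without replicate 1 of both groups (0.0569).

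**Figure D3:**
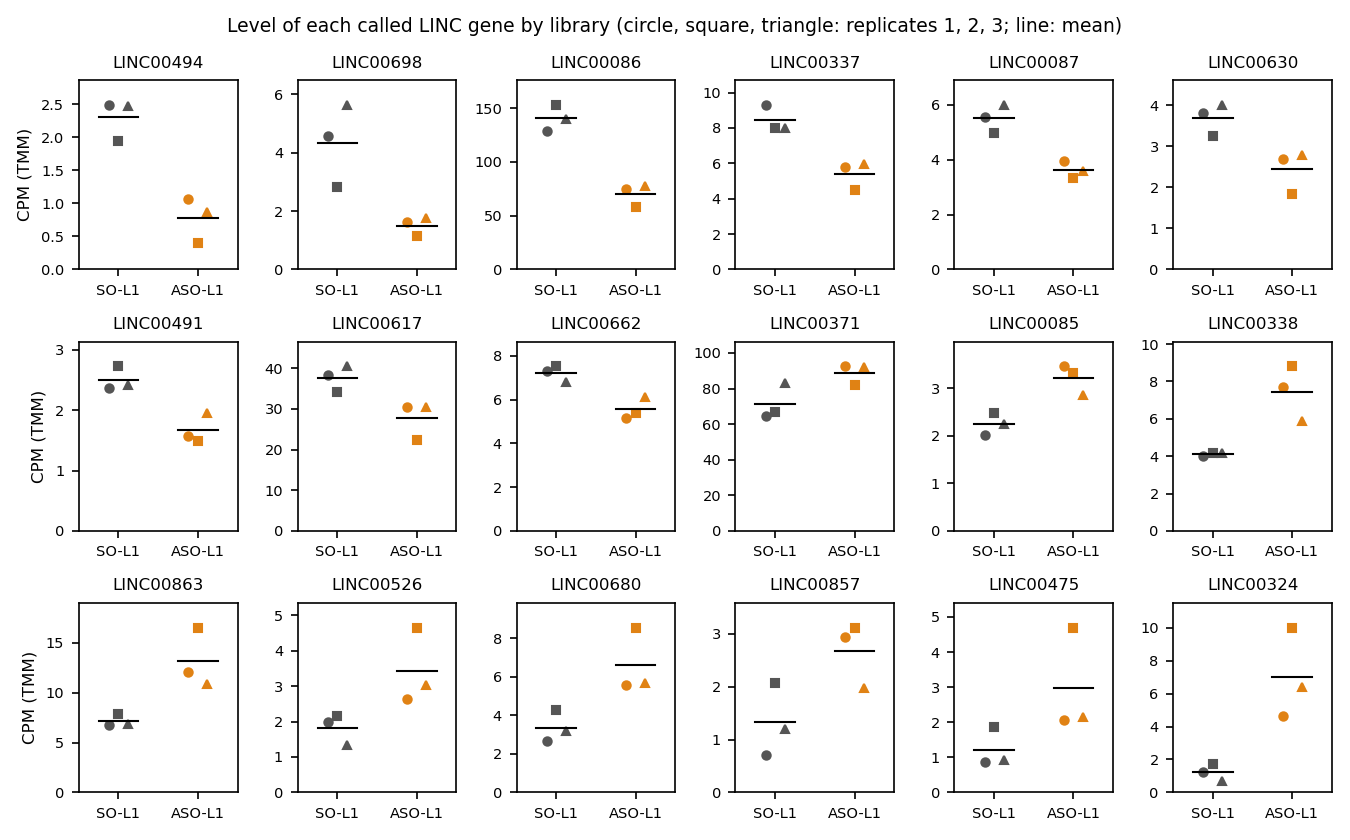
TMM-scaled CPM (y axis, from 0) of the 18 called LINC genes in each library of SO-L1 (grey) and ASO-L1 (orange), with a symbol for each replicate number and a line at the mean of 3. The groups do not overlap except for LINC00371 and LINC00857. The 18 genes shown were picked by the test between the groups, and 50.9% of all genes tested also had no overlap. Replicate 2 is often the most extreme library of its group.

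LINC00494 and LINC00698 fell the furthest and were low to begin with. LINC00494 had 78, 48 and 76 reads in SO-L1 and 26, 9 and 27 in ASO-L1, or 2.50, 1.95 and 2.48 CPM against 1.07, 0.395 and 0.877 CPM (adjusted p = 0.00468). LINC00698 went from 4.58, 2.81 and 5.64 CPM to 1.61, 1.14 and 1.75 CPM (0.00359). Neither gene's groups overlapped. A protein-coding neighbour of each fell too, by less: SULF2, a sulfatase of heparan sulfate next to LINC00494, went from 61.9 ± 4.56 to 44.8 ± 1.52 CPM (SD, n = 3, log2 fold change -0.46 ± 0.08), and CADPS, a factor of vesicle release next to LINC00698, from 16.8 ± 1.05 to 12.1 ± 2.35 CPM (-0.47 ± 0.14). PREX1, on the other side of LINC00494, did not pass (0.15 ± 0.13, 0.387), and SYNPR, on the other side of LINC00698, was not tested. Both calls were lost without replicate 1 of both groups (0.0502 for LINC00494 and 0.0593 for LINC00698).

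LINC00337, LINC00630 and LINC00491 fell by smaller amounts, again with no overlap between the groups. LINC00337 went from 9.31, 8.02 and 7.99 CPM to 5.78, 4.47 and 5.97 CPM (-0.64 ± 0.15, adjusted p = 0.00889). LINC00630 went from 3.81, 3.26 and 4.01 CPM to 2.68, 1.84 and 2.79 CPM (-0.59 ± 0.19, 0.0385). LINC00491 went from 2.37, 2.73 and 2.41 CPM to 1.57, 1.49 and 1.95 CPM (-0.57 ± 0.19, 0.0445), and was called under 7 of 18 alternatives. Its adjusted p ran from 0.0263 with the replicate block to 0.215 without replicate 1 of both groups, and leaving out any single library other than ASO-L1 replicate 3 ended the call (0.0874, 0.0969 and 0.0977 without SO-L1 replicates 1, 2 and 3, 0.131 and 0.101 without ASO-L1 replicates 1 and 2). The call of LINC00630 was lost without SO-L1 replicate 1 (0.115) or 3 (0.132), without ASO-L1 replicate 1 (0.0663) or 2 (0.0889), replicate 1 (0.183) or 3 (0.125) of both groups or against a 1.2-fold change (0.132), and that of LINC00337 without SO-L1 replicate 1 (0.0509) or replicate 1 of both groups (0.105).

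Among the 8 members that RefSeq now lists as protein-coding, 3 fell, 2 rose and 3 did not pass. Of all genes tested, 15.7% were lower and 18.0% higher. LINC00086 had the most reads after LINC00657 by the mean over both groups, though in ASO-L1 it lay below LINC00371 and LINC00665. It was at 129, 153 and 140 CPM in SO-L1 and 74.7, 58.1 and 77.7 CPM in ASO-L1 (adjusted p = 0.00117). It thus dropped in every ASO-L1 library to well under every SO-L1 library. LINC00087 went from 5.54, 4.96 and 6.00 CPM to 3.96, 3.33 and 3.60 CPM (-0.60 ± 0.15, 0.0121). RefSeq gives both symbols as older names of both SMIM10L2A and SMIM10L2B, paired genes for a small membrane protein, so the 2 rows cannot be assigned to either gene here and their reads may be shared. LINC00617, now TUNAR, a conserved RNA linked to pluripotency and neural differentiation that also codes for a microprotein, went from 38.5, 34.1 and 40.5 CPM to 30.4, 22.4 and 30.4 CPM (-0.44 ± 0.12, 0.0206). The call of LINC00087 was lost without SO-L1 replicate 3 (0.0595), without replicate 1 (0.0941) or 3 (0.129) of both groups and against a 1.2-fold change (0.0572), and that of LINC00617 without SO-L1 replicate 1 (0.0829) or 3 (0.0875), replicate 1 (0.118) or 3 (0.0683) of both groups and against a 1.2-fold change (0.140).

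The 2 increases in this group were modest. LINC00371, now C13orf42, had 64.5, 66.5 and 83.1 CPM in SO-L1 and 92.5, 81.9 and 92.2 CPM in ASO-L1 (0.32 ± 0.10, adjusted p = 0.0336). SO-L1 replicate 3 lay above ASO-L1 replicate 2, so the groups overlapped. LINC00085, which RefSeq lists under SPACA6, a gene of sperm-egg fusion, had 2.02, 2.48 and 2.25 CPM against 3.47, 3.33 and 2.86 CPM (0.52 ± 0.18, 0.0439). An antisense gene and HAS1, a hyaluronan synthase gene, share the SPACA6 locus, and HAS1 rose too (1.01 ± 0.25, 0.0123). Whether counting used strand is not given in the sources used here. LINC00085 was called under 7 of 18 alternatives, with an adjusted p from 0.0229 to 0.298, and did not pass when SO-L1 replicate 1 (0.140), SO-L1 replicate 3 (0.115), without ASO-L1 replicate 1 (0.125) or ASO-L1 replicate 2 (0.0803) was left out, without replicate 1 (0.298) or 3 (0.127) of both groups, against a 1.2-fold change (0.163), by DESeq2 (0.0839), with no filter (0.0861) and with no scaling factor (0.0577) or upper-quartile factors (0.0563). The call of LINC00371 was lost without SO-L1 replicate 1 (0.146) or 2 (0.106), without ASO-L1 replicate 1 (0.0852) or 3 (0.0815), without replicate 1 of both groups (0.282), against a 1.2-fold change (0.368) and with upper-quartile factors (0.0630).

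The microprotein genes that did not pass were LINC00493, LINC00116 and LINC00094. LINC00493, now SMIM26, which encodes a small mitochondrial protein, was at 11.7 ± 0.396 and 14.0 ± 1.77 CPM (SD, n = 3, log2 fold change 0.26 ± 0.11, adjusted p = 0.107). LINC00116, now MTLN, for the mitochondrial microprotein mitoregulin, was at 1.56 ± 0.150 and 1.43 ± 0.220 CPM (-0.12 ± 0.22, 0.70). LINC00094, now BRD3OS, on the opposite strand of the chromatin reader gene BRD3, was at 24.3 ± 1.32 and 24.1 ± 0.270 CPM (-0.01 ± 0.08, 0.944). The groups overlapped for LINC00116 and LINC00094 and did not for LINC00493.

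Some members are hosts of small RNAs. LINC00338, now SNHG20, is the host of the small Cajal body RNA SCARNA16. It went from 4.03, 4.15 and 4.18 CPM to 7.68, 8.81 and 5.88 CPM (log2 fold change 0.85 ± 0.16, adjusted p = 0.00459), with every ASO-L1 library above the SO-L1 ones. RefSeq places its start 42 bases from that of SEC14L1 on the same strand, and SEC14L1 rose by 0.22 ± 0.08 on the log2 scale (0.0450). Of the 13 genes tested with an SNHG symbol, the names for snoRNA host genes, 11 rose and 1 fell, with a median log2 fold change of 0.74. Of all genes tested, 18.0% rose and 15.7% fell, with a median of -0.01. LINC00599, now MIR124-1HG, the host of a microRNA of neurons, was at 1.67 ± 0.139 and 2.01 ± 0.198 CPM (SD, n = 3) and did not pass (0.27 ± 0.19, 0.313). The call of LINC00338 was lost without replicate 1 of both groups (0.0739).

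LINC00657, now NORAD, an abundant cytoplasmic RNA that binds Pumilio proteins, held 46.9% to 49.9% of all reads of the 42 members in the SO-L1 libraries and 50.1% to 54.5% in the ASO-L1 libraries. Its own level did not pass, at 508, 606 and 537 CPM in SO-L1 and 553, 605 and 540 CPM in ASO-L1 (0.04 ± 0.08, adjusted p = 0.712), and its groups overlapped. The other 41 members summed to 575 to 608 CPM in SO-L1 and 506 to 541 CPM in ASO-L1, ranges that do not overlap. Among them LINC00086 alone went from 141 ± 12.2 to 70.2 ± 10.6 CPM (SD, n = 3). With LINC00086 also left out, the sums of the rest overlapped between the groups. CPM are not corrected for gene length, so they rank genes by reads and not by molecules.

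Of the other LINC genes with a literature of their own, LINC00662 fell (7.21 ± 0.384 to 5.56 ± 0.510 CPM, SD, n = 3, log2 fold change -0.37 ± 0.13, adjusted p = 0.0478). It was called under 6 of 18 alternatives, with an adjusted p from 0.0254 to 0.321. Leaving out any single library except ASO-L1 replicate 3 ended the call (0.124, 0.0952 and 0.0858 without SO-L1 replicates 1, 2 and 3, 0.171 and 0.0815 without ASO-L1 replicates 1 and 2), as did DESeq2 (0.0774) and limma-voom (0.0505). LINC00152, now CYTOR, a cytoplasmic RNA studied mostly in tumor cells, did not pass at 12.7 ± 1.37 and 13.7 ± 2.51 CPM (0.11 ± 0.14, 0.581). LINC00511, also studied mostly in tumor cells, did not either (-0.01 ± 0.24, 0.990).

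LINC00678, LINC00665, LINC00467, LINC00265, LINC00263, LINC00476 and LINC00667 did not pass in the fit described above but did when the replicate number was a block in it. LINC00678 had 37.3, 31.0 and 37.0 CPM in SO-L1 and 30.3, 20.1 and 29.4 CPM in ASO-L1 (log2 fold change -0.40 ± 0.15, adjusted p = 0.0638, and 6.52e-04 with the block). Its highest ASO-L1 library lay just under its lowest SO-L1 library. LINC00665 (99.8 ± 4.10 to 88.4 ± 6.66 CPM, SD, n = 3) had an adjusted p of 0.0897, and 0.0472 with the block. The p-values without and with the block were 0.107 and 0.0103 for LINC00263 (-0.42 ± 0.19) and 0.0730 and 0.0172 for LINC00667, both lower in ASO-L1. Higher in ASO-L1 were LINC00467 (0.40 ± 0.15, 0.0620 and 0.0241), LINC00265 (0.38 ± 0.13, 0.0510 and 0.00770) and LINC00476 (0.53 ± 0.22, 0.0780 and 0.0459). LINC00678 and LINC00265 also passed by DESeq2 (0.0297 and 0.0419), and each of these 7 except LINC00665 passed under 1 or more of the other settings. All 18 calls of the fit without the block also held with it, which made 25 calls in all, beside 45.7% of all genes.

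LINC00667 and LINC00526 form a head-to-head pair on chromosome 18. Their RefSeq starts lie 71 bases apart on opposite strands, so the LINC00526 window printed above also holds the LINC00667 start. LINC00526 rose from 1.98, 2.16 and 1.34 CPM to 2.64, 4.65 and 3.02 CPM (log2 fold change 0.91 ± 0.26, adjusted p = 0.0222). LINC00667 was at 14.8, 17.5 and 14.9 CPM in SO-L1 and at 11.4, 13.9 and 13.2 CPM in ASO-L1 (-0.29 ± 0.11, 0.0730). For every 100 reads of LINC00667 there were 13.4, 12.3 and 8.97 reads of LINC00526 in SO-L1 and 23.2, 33.3 and 22.9 in ASO-L1. This ratio within a library does not depend on its depth or scaling, and the groups did not overlap. The call of LINC00526 was lost without SO-L1 replicate 1 (0.0677) or 3 (0.0919), without ASO-L1 replicate 2 (0.0521), replicate 1 (0.0735) or 3 (0.0843) of both groups and against a 1.2-fold change (0.0647).

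**Figure D4:**
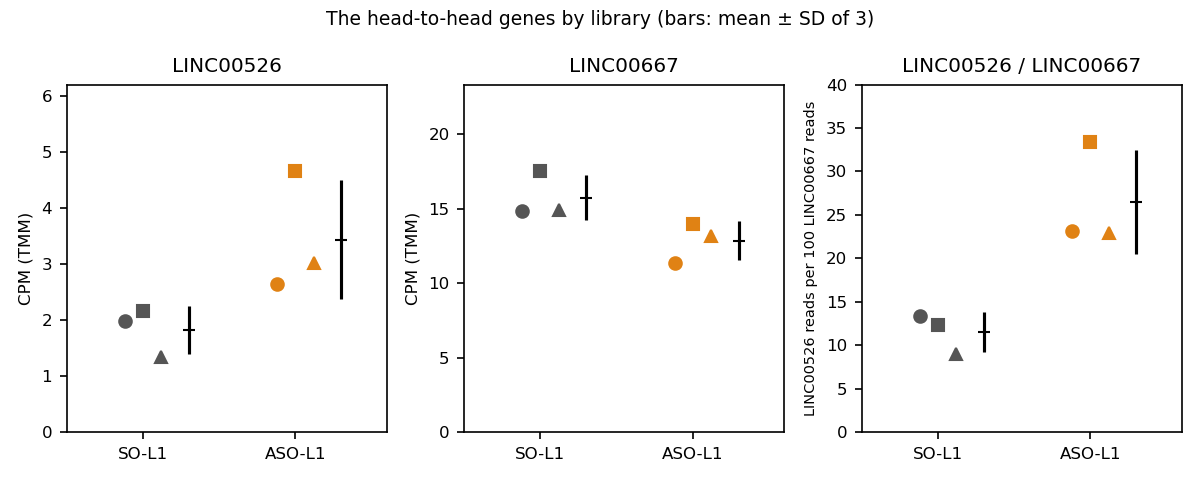
TMM-scaled CPM of LINC00526 (left) and LINC00667 (middle), and reads of LINC00526 per 100 reads of LINC00667 (right), in each library (circle, square and triangle for replicates 1, 2 and 3) with mean ± SD of 3. The ratio lies between 8.97 and 13.4 in SO-L1 and between 22.9 and 33.3 in ASO-L1.

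Other members also start close to a gene on the opposite strand, pointing away from it. LINC00337, now ICMT-DT, starts 276 bases from ICMT, the methyltransferase gene of prenylated proteins, which did not pass (0.02 ± 0.05, adjusted p = 0.835) while LINC00337 fell. LINC00863 starts 178 bases from NUTM2A-AS1, which did not pass either (-0.09 ± 0.10, 0.509) while LINC00863 rose. These genes also overlap in RefSeq, and how reads of the shared stretch were counted is not known. LINC00205 starts 157 bases from POFUT2, a fucosyltransferase gene, and here the partner rose (0.28 ± 0.08, 0.0226) while LINC00205 did not pass (-0.14 ± 0.12, 0.399). The difference between the partners was not tested.

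Neighbours of the called members were looked up for the 16 that match a single RefSeq entry. Of the 32 nearest protein-coding genes on either side, 23 were tested, and 9 of these were called, 6 in the member's direction and 3 in the other. With 33.7% of all genes called, this count is near the background. HES3, a bHLH repressor gene beside LINC00337, had the largest decrease of them, from 16.7 ± 2.94 to 7.98 ± 2.62 CPM (SD, n = 3, log2 fold change -1.06 ± 0.24, adjusted p = 0.0112). LINC00475 lay between a neighbour that fell, SPTLC1 of sphingolipid synthesis (-0.56 ± 0.09, 0.00231), and IARS1, an isoleucyl-tRNA synthetase gene listed as IARS, that rose (0.23 ± 0.07, 0.0330). The other neighbours called against the member's direction were MGAT5B beside LINC00338 (-0.50 ± 0.12, 0.0124) and FAM124A beside LINC00371 (-0.37 ± 0.09, 0.0146).

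The remaining members neither passed nor passed with the block. LINC00641 (14.2 ± 1.35 and 13.9 ± 2.53 CPM, SD, n = 3), LINC00849 (9.60 ± 2.30 and 10.9 ± 2.34 CPM), LINC00339 (10.4 ± 0.336 and 9.55 ± 0.431 CPM) and LINC00847 (4.95 ± 0.725 and 4.94 ± 0.518 CPM) were the ones with the most reads among them, together with LINC00205. LINC00707, LINC00649, LINC00174, LINC00173 and LINC00342 lay between 0.886 and 4.01 CPM in SO-L1 with log2 fold changes from -0.03 to 0.43. At the threshold of membership, LINC00173 (mean 1.46 CPM), LINC00511 (1.22) and LINC00342 (1.04) were just inside and LINC00663 (0.954), LINC00674 (0.950) and LINC00052 (0.947) just outside. LINC00674 was itself called lower (log2 fold change -0.90 ± 0.28, adjusted p = 0.0324 by edgeR). A threshold of 0.5 CPM would give 60 members, with 9 called higher and 11 lower, beside 33.7% of all genes called. LINC00342 had a mean under 1 CPM in SO-L1, and LINC00494 in ASO-L1, so each of these reached membership through the other group.

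Long noncoding RNAs with names of their own moved in both directions too. Of 32 written, 27 were in the table and 23 were tested, with 11 higher and 6 lower and a median log2 fold change of 0.37, beside 18.0% higher and 15.7% lower of all genes. Among the increases were the snoRNA hosts GAS5 (1.07 ± 0.23), SNHG1 (1.52 ± 0.14), SNHG5 (0.88 ± 0.12) and SNHG12 (1.19 ± 0.23). MALAT1, the nuclear speckle RNA, also rose (0.48 ± 0.07). The list was picked by hand and includes such hosts, so its counts do not stand for named long noncoding RNAs as a class. MIAT fell (-0.87 ± 0.23), as did JPX, an RNA of the X inactivation center (-0.42 ± 0.09). Of 176 antisense-named genes tested, 25 were higher (14.2%) and 11 lower (6.25%), both shares below those of all genes, with a median of 0.05. These genes did not have to reach the 1 CPM required of members. The 103 that did had 17.5% higher and 9.71% lower, beside 19.4% and 18.0% of all genes at that level. ESRG, an RNA of human pluripotent cells, was at 1320 ± 174 and 1345 ± 142 CPM (SD, n = 3) and LINC-ROR, named for reprogramming, at 12.2 ± 1.39 and 9.97 ± 1.89 CPM, and neither passed. LINC00458 (0.583 ± 0.0986 and 0.642 ± 0.171 CPM) and LINC00461 (0.612 ± 0.0588 and 0.442 ± 0.153 CPM) were tested below the membership threshold and did not pass, and LINC00473, a cAMP-induced RNA, had no read in any library.

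Library totals ran from 23330875 to 31164287 counts. Core pluripotency markers, POU5F1 and NANOG among them, summed to 4171 to 4518 CPM in SO-L1 and 3528 to 4108 in ASO-L1. By edgeR 0 were higher and 1, PRDM14, was lower of 7 tested. POU5F1 and NANOG did not pass (adjusted p = 0.114 and 0.0553). Naive markers summed to 327 to 366 and 271 to 280 CPM, with 2 higher and 5 lower of 9 tested. Some markers of other cells passed as well, beside 18.0% of all genes called higher and 15.7% called lower: trophectoderm (3 higher of 8, summing to 301 to 320 and 337 to 381 CPM), primitive endoderm (3 of 6, 8.68 to 9.56 and 10.4 to 15.7), fibroblast or mesenchymal (4 of 7, 548 to 618 and 682 to 816) and neural (2 higher and 1 lower of 4, 563 to 578 and 582 to 714). No marker of these lists was at 0 in all libraries. TUBB3, of the neural list, was alone at 550 ± 8.45 and 611 ± 76.3 CPM (SD, n = 3) and did not pass (adjusted p = 0.177 by edgeR). Primed markers had 3 higher of 6, and of 4 markers of the 8-cell-like state tested 0 passed by edgeR. Their part in the changes of the LINC genes was not tested, and in bulk RNA fewer cells that make an RNA and less of it per cell cannot be told apart.

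In the authors' deposited table of the same comparison, 7 of the 42 members were higher and 6 lower at an adjusted p under 0.05, against 21.4% of its 20964 genes. All 13 were among the 18 called here. The other 5, not called in the authors' deposited table, were LINC00630, LINC00491, LINC00662, LINC00371 and LINC00085.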

How the data were processed

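Poly(A) RNA was sequenced from 3 SO-L1 and 3 ASO-L1 libraries. The authors deposited raw read counts per gene symbol with duplicates removed, per the labels and file headers. The submitters' processing notes list hg19 as the build, and TopHat2 2.0.13, Trim Galore 0.4.0, Subread 1.5.0 and featureCounts as tools. The annotation, the strand setting and the handling of multi-mapping reads are not stated there. Duplicate removal with no molecular identifiers takes most from abundant genes. The authors' deposited comparison table holds log2 fold changes and mean log2 expression, p-values and adjusted p-values, and t and log-odds scores per the file headers, and its model is not stated. A deposited batch-corrected table was not used.

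Counts were filtered with filterByExpr (minimum count 10, total 15), scaled by TMM and tested over all genes with edgeR 4.0.16 (quasi-likelihood, robust, two-sided, calls at an adjusted p under 0.05), after a test on simulated data. SE is the log2 fold change over the square root of F. CPM in the text are TMM-scaled unless membership is meant. DESeq2 1.42.0, limma 3.58.1 and other settings were alternatives. Members, gene lists and the rule for named genes (12 largest changes each way, 12 with most reads, listed genes, those at the threshold) were chosen with earlier results of these data known. A few further members are named for completeness. Within-group deviations of libraries with the same replicate number correlated (0.102, 0.377 and 0.211). SO-L1 replicate 1 correlated more with ASO-L1 replicate 3 (0.156), and SO-L1 replicate 3 correlated with ASO-L1 replicate 1 at 0.162. The replicate number was therefore a block in an alternative fit only. The main fit and its adjusted p-values are unpaired. Promoters and neighbours are from RefSeq, GRCh38.p14, and no coordinates were converted. An exact permutation test of 3 against 3 cannot go below p = 0.1, so none was run.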

Additional observations from a re-analysis of the deposited data

How the results depend on the processing

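Of the called members, none changed direction under the 18 alternatives, and the median log2 fold change of the members stayed between -0.05 and 0 under the 4 scalings. Against a 1.2-fold change 4 members were called higher and 4 lower (19.05% of members, 12.2% of all genes). Among the 20 members with a mean of 5 CPM or more, 3 were called higher and 4 lower without that limit. Without it, 33.7% of all genes tested were called. Leaving out single libraries gave 3 to 9 higher and 4 to 9 lower, and leaving out a replicate number in both groups 1 to 11 higher and 1 to 10 lower. Without replicate 1 of both groups the counts were 1 and 1, and without replicate 3 of both groups 5 and 4. With the replicate block, 12 were higher and 13 lower, and no call was lost. Members with a mean under 10 CPM numbered 28 of 42, and how depth bears on their calls was not tested. The cause of the dependence on replicates was not tested.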
